A study of Homo sapiens with 6 samples.

Results

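The genes of glycolysis and of the response to low oxygen were followed through 6 RNA-seq libraries of 2 prostate cancer cell lines treated with inhibitors of the chaperone HSP70. The list held 33 of the 60658 genes deposited, chosen by name for their role in glucose use or in the hypoxia pathway. Earlier results of these data were known when the list was chosen. It comprised 3 transporters of glucose and lactate, 16 glycolytic enzymes, 3 regulators of glycolytic flux, 6 subunits and regulators of hypoxia-inducible factor (HIF), and 5 HIF targets outside glycolysis. The lines were C4-2B MDVR, an enzalutamide-resistant derivative of C4-2B maintained with 20 µM enzalutamide in the medium, and CWR22Rv1, kept without the drug. For 48 h each line was given vehicle (DMSO), apoptozole (APO, 10 µM) or VER155008 (VER, 10 µM). Although the source label of the first line reads LNCaP-C4-2B, and parental, the titles of its libraries say C4-2B MDVR and were followed. Each condition was 1 library of 1 cultured line, so no difference below has a replicate check and no test or p-value is given.

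Glycolysis splits glucose into pyruvate and yields ATP without oxygen, and lactate dehydrogenase then reduces pyruvate to lactate, which is exported from the cell. HIF is a dimer of an oxygen-labile alpha subunit and a stable beta subunit. With oxygen, prolyl hydroxylases mark the alpha subunit for capture by VHL and degradation by the proteasome. Without it, the dimer binds short ACGTG or GCGTG cores and raises the transcription of most glycolytic genes. HIF alpha subunits are thus controlled largely at the protein level, which RNA-seq does not measure.

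Values are FPKM, fragments corrected for the length of the transcript and for library size, so levels may be compared between genes. Where 3 levels follow each other for a line, their order is DMSO, APO and VER. Where 4 differences follow each other, the order is APO and VER in C4-2B MDVR and then in CWR22Rv1. A fold change is a difference of log2(FPKM + 0.1) between 2 libraries, and a gene was called higher or lower past 1.2-fold (0.26 on the log2 scale), the threshold the study used. All 33 members passed the filter of 0.1 FPKM in at least 1 library of each line, and the number of all genes compared was 20122 in the first line and 21608 in the second. All 10 markers of luminal prostate epithelium exceeded 1 FPKM in every library, while the basal markers KRT5 and TP63 were listed at 0 throughout. The leukocyte and endothelial markers, 4 and 3 genes, stayed below 1 FPKM, and 1 or 2 of the 4 fibroblast markers exceeded 1 FPKM. All 3 neuroendocrine markers, 1 of which is the glycolytic isozyme ENO2, exceeded 1 FPKM in CWR22Rv1 cells, against 1 of 3 in the other line. Their sum in CWR22Rv1 was 140, 71.5 and 110 FPKM, and in C4-2B MDVR it was 15.6 to 22.2 FPKM. ENO2 was lower in all 4 inhibitor contrasts, at -0.37, -0.58, -1.27 and -0.70. With VER in CWR22Rv1 cells SYP and CHGA, the other markers, were within the threshold, at 0.01 and 0.11. The lower sum in that library therefore came from ENO2. With APO in CWR22Rv1 cells SYP and CHGA were lower as well, at -0.72 and -0.33. The part of the neuroendocrine markers in the results was not tested. Genes of the mitochondrial chromosome held 10.4% of all FPKM in the CWR22Rv1 APO library and 25.7% in each of the other libraries of that line.

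Most of the list was lower with either inhibitor in both lines. With APO in C4-2B MDVR cells 22 of the 33 members were lower and 4 higher, where 35.4% of all genes compared were lower and 37.7% higher. Either rescaling of the libraries to the same sum, of all genes or of nuclear genes only, left 23 lower and 2 higher. With VER in the same line 24 were lower and 0 higher, against 34.9% and 35.6% of all genes. The 9 members within the threshold included HK1, PFKM and ALDOC. In CWR22Rv1 cells 22 were lower and 6 higher with APO, against 39.2% and 35.6% of all genes, and the split was 24 lower and 2 higher when the libraries were rescaled to the same sum of nuclear genes. With VER 22 were lower and 3 higher, against 32.3% and 32.1%. Past 2-fold in C4-2B MDVR cells, 6 members were lower with APO and 7 with VER, where 13.3% of all genes were lower in either contrast. The corresponding counts in CWR22Rv1 cells were 6 with APO and 3 with VER, against 16.8% and 8.92%. A lower level in a bulk library may come from fewer cells that express a gene or from less RNA per cell, which cannot be told apart.

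APO and VER were each compared with the same DMSO library within a line, whereas the 2 lines have separate controls. Lower in both lines with APO were 19 of the 33 members, against 21.6% of the 18059 genes compared in both, and PDK1 and ARNT were higher in both, against 21.3%. Rescaled by nuclear genes, neither was past the threshold in either line, at 0.24 and 0.17 for PDK1 and 0.21 and 0.23 for ARNT. Lower in both lines with VER were 18 members, against 18.2% of genes, and 0 were higher in both, against 17.9%. Among the 16 enzymes 13 were lower in both lines with each inhibitor. The exceptions were HK1, HK2 and PGK1 with APO and HK1, PFKM and ALDOC with VER.

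**Figure D1:**
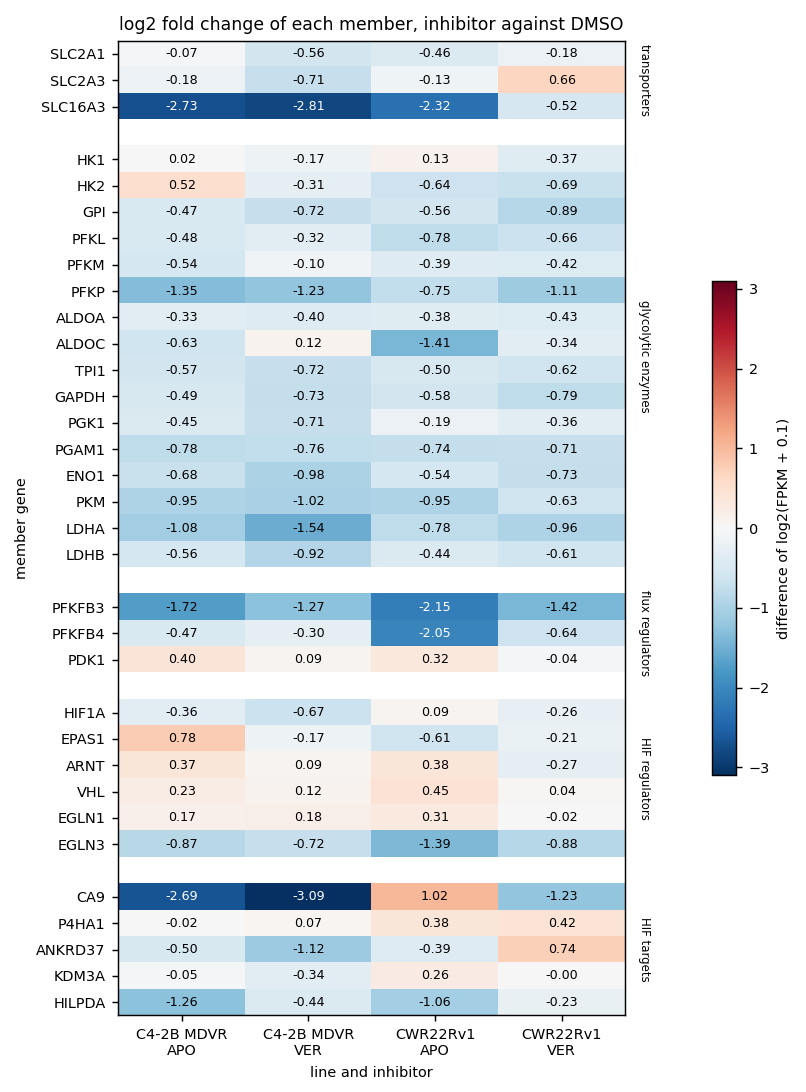
Difference of log2(FPKM + 0.1) between inhibitor and DMSO for the 33 members (rows, grouped by role) in the 4 inhibitor contrasts (columns), with blue for lower and red for higher values and the value printed in each cell. SLC16A3 and CA9 hold the darkest cells, at -2.81 and -3.09, and the enzyme rows are blue in nearly every column.

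The roles differed in how their members moved. The median log2 fold change of the 16 enzymes was -0.55, -0.72, -0.57 and -0.64 in the 4 inhibitor contrasts, while the median of all genes compared lay between -0.01 and 0 in each of these contrasts. Of the enzymes, 14, 13, 14 and 16 were lower, and the 1 higher value was HK2 with APO in C4-2B MDVR cells. The 6 HIF subunits and regulators had medians of 0.20, -0.04, 0.20 and -0.23, with 2 lower in each contrast and 2, 0, 3 and 0 higher. Their lower members included the hydroxylase EGLN3 in every contrast. The 5 HIF targets outside glycolysis had medians of -0.50, -0.44, 0.26 and -0.00, with 3, 4, 2 and 1 lower and 0, 0, 2 and 2 higher, the 1 being CA9, which was listed at 0. These medians rest on CA9, which was below 1 FPKM in every library but one. With genes above 0.1 FPKM in all 3 libraries of a line, which leaves CA9 out, they were -0.27, -0.39, -0.07 and 0.21, so that the value with APO in CWR22Rv1 cells changed sign. The enzymes therefore had the lowest median of these 3 groups in all 4 contrasts, with or without CA9. With APO in C4-2B MDVR cells their median was close to that of the targets when CA9 was kept, and no such order was tested. The 3 transporters had medians of -0.18, -0.71, -0.46 and -0.18 and the 3 flux regulators of -0.47, -0.30, -2.05 and -0.64. With APO in CWR22Rv1 cells the flux regulators thus had a lower median than the enzymes.

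Enzymes of glycolysis are among the most abundant mRNAs of a cell, so they were also set beside abundant genes only. A mean over 100 FPKM was reached by 967 genes in the C4-2B MDVR libraries and 905 in those of CWR22Rv1. Of these, 21.8%, 29.5%, 31.7% and 23.5% were lower in the 4 inhibitor contrasts. The 10 enzymes above 100 FPKM in every library (GPI, ALDOA, TPI1, GAPDH, PGK1, PGAM1, ENO1, PKM, LDHA and LDHB) gave 10, 10, 9 and 10 lower values, the exception being PGK1 with APO in CWR22Rv1 cells.

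**Figure D2:**
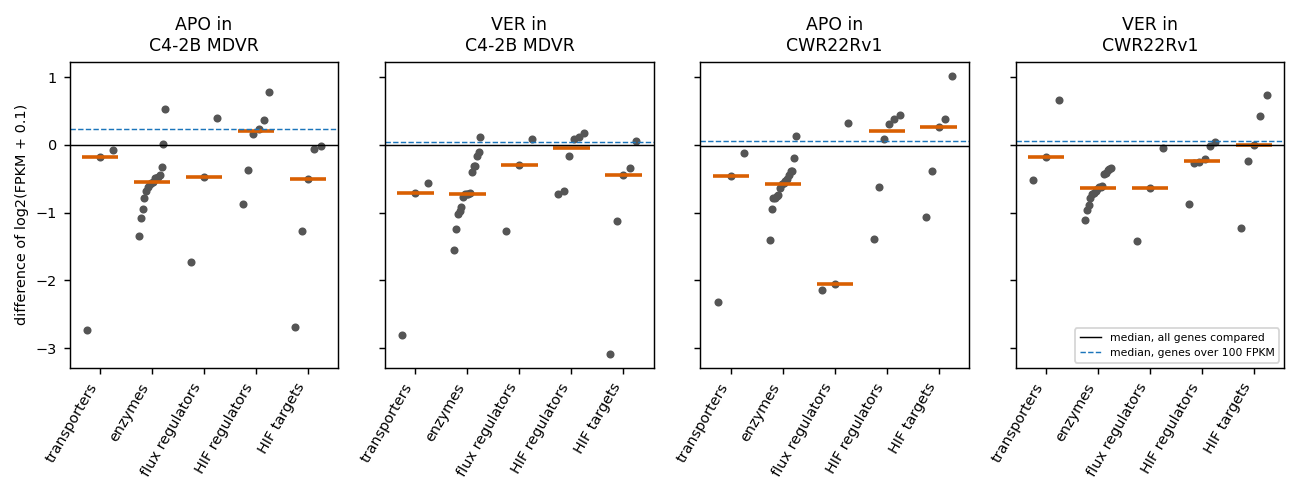
Difference of log2(FPKM + 0.1) between inhibitor and DMSO (vertical axis) for each member (points), by role, in the 4 inhibitor contrasts. Orange bars are group medians, the black line is the median of all genes compared and the dashed line that of genes with a mean over 100 FPKM. The enzyme medians lie between -0.72 and -0.55, and the HIF regulators spread to both sides of 0.

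Since HIF acts through the short cores named above, the 250 bases before the transcription start given by RefSeq (GRCh38.p14) were read. Only the 18 of the 33 members with a single entry were used, a limit not set on the promoters of all genes below. That start can lie inside the longer gene spans of GENCODE 29. All 18 windows overlapped the span of their own gene and 8 lay wholly in its exons. ACGTG or GCGTG stood on either strand in 12 of these 18 windows (66.7%), against 43.2% of 35116 promoters of the same length. By motif, 18.5% of all promoters held ACGTG and 32.2% GCGTG. The palindrome CACGTG, which contains ACGTG on both strands, was held by 6.34% of them and by 3 of the 18 members. The windows with a core were 6 of 9 among enzymes, 2 of 4 among HIF subunits and regulators and 3 of 3 among HIF targets. The members were rich in G and C, with a median of 69.2%, and the share was not matched for this. A match describes the letters of the window and is not evidence of binding.

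The part of the PGK1 window outside its annotated exons, though still within the annotated span of the gene, is shown because 3 cores lie within a short stretch of it. It spans chrX:78103998-78104173 on the plus strand, and capitals mark the cores or their reverse complements.
PGK1: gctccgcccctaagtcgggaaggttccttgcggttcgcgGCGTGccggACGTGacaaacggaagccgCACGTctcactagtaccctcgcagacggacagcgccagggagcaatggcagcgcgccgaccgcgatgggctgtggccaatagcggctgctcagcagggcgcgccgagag

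Short stretches around a core are given for an abundant enzyme, a flux regulator and 3 HIF targets, so that genes that fell and genes that did not can be read side by side. All run 5′ to 3′ on the strand of the gene, with the core in capitals. They lie at chr12:6535173-6535197 (GAPDH, plus strand), chr3:48556955-48556979 (PFKFB4, minus), chr9:35673900-35673924 (CA9, plus), chr10:73096938-73096962 (P4HA1, minus) and chr4:185396669-185396693 (ANKRD37, plus).
GAPDH: tctgcggggtCACGTGtcgcagagg
PFKFB4: agttgggcatGCGTGgtcggaggcc
CA9: gtttccaatgCACGTacagcccgta
P4HA1: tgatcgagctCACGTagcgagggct
ANKRD37: cgccgggctcCACGTGccagtgttt
The stretches of CA9, P4HA1 and ANKRD37 lie in exons of the genes as annotated in GENCODE 29, and those of GAPDH and PFKFB4 do not. P4HA1 held a core and was not lower in any of the 4 inhibitor contrasts, while GAPDH held one and was lower in all 4.

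Among the transporters, SLC16A3 stood out. It encodes MCT4, the lactate exporter of glycolytic cells, and lies at chr17:82228397-82261129 (ENSG00000141526), in GRCh38 coordinates as for each gene below. Its levels were 35.9, 5.31 and 5.03 FPKM in C4-2B MDVR and 78.2, 15.6 and 54.6 FPKM in CWR22Rv1. Both inhibited C4-2B MDVR libraries and the CWR22Rv1 APO library thus lay far below their controls, at 14.8%, 14.0% and 19.9% of DMSO, and the CWR22Rv1 VER library held 69.8%. The log2 fold changes were -2.73, -2.81, -2.32 and -0.52.

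The glucose importers moved less. SLC2A1 (GLUT1), the main basal importer, ranged from 41.0 to 63.7 FPKM and was lower with VER in the first line (-0.56) and with APO in the second (-0.46). SLC2A3 (GLUT3) stayed between 0.88 and 1.70 FPKM. Its fold changes were -0.18, -0.71, -0.13 and 0.66. The value in CWR22Rv1 cells is uncertain, since SLC2A3 pseudogenes were listed at 1.61 FPKM in the DMSO library of that line and at nearly 0 in the others, and adding them turned the change with VER to -0.61 and took that with APO to -1.40.

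**Figure D3:**
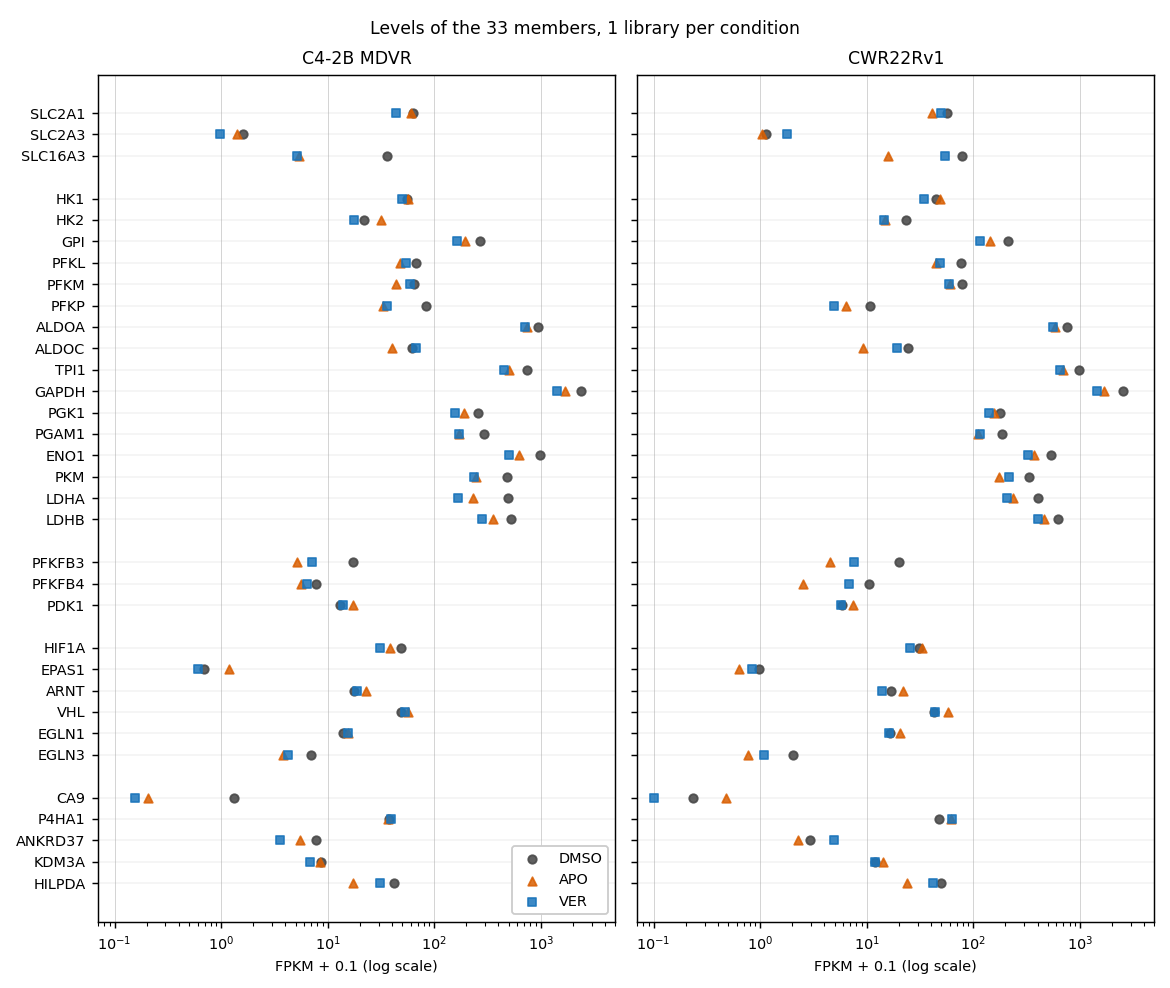
FPKM + 0.1 (horizontal axis, log scale) of the 33 members in C4-2B MDVR (left) and CWR22Rv1 cells (right), with 1 library per point and DMSO, APO and VER as circles, triangles and squares. From GPI to LDHB the DMSO circle is the rightmost point of each row, apart from ALDOC in C4-2B MDVR cells, and GAPDH reaches 2523 FPKM.

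The pathway opens with hexokinase, which spends ATP to trap glucose in the cell, and its isozymes changed unevenly. HK1 (chr10:69269984-69401884), the housekeeping hexokinase, was at 55.8, 56.4 and 49.7 FPKM in C4-2B MDVR and at 44.6, 49.0 and 34.4 FPKM in CWR22Rv1. Only the CWR22Rv1 VER library passed the threshold, at -0.37. HK2, the inducible isozyme, ranged from 14.3 to 31.3 FPKM, and its highest value was in the C4-2B MDVR APO library, where the fold change was 0.52. In the other contrasts it was lower, at -0.31, -0.64 and -0.69.

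GPI (chr19:34359480-34402413), which isomerises glucose 6-phosphate, was lower in all 4 contrasts. It was at 268, 194 and 162 FPKM in C4-2B MDVR and 213, 145 and 115 FPKM in CWR22Rv1. Neither inhibited library of a line reached its control, and the log2 fold changes ran from -0.89 to -0.47.

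Phosphofructokinase commits sugar to glycolysis and is built from 3 kinds of subunit. PFKP (chr10:3066333-3137712), the platelet type, was at 84.2, 33 and 35.7 FPKM in C4-2B MDVR and only 10.6, 6.27 and 4.86 FPKM in CWR22Rv1. Its fold changes were -1.35, -1.23, -0.75 and -1.11, the furthest below 0 of the 3 subunits in all but the CWR22Rv1 APO library, where PFKL was at -0.78. PFKM (chr12:48105139-48146404), the muscle type and the most abundant in CWR22Rv1 cells, was at 63.9, 43.8 and 59.6 FPKM in C4-2B MDVR cells and 78.5, 59.9 and 58.7 FPKM in CWR22Rv1 cells. PFKM was within the threshold in the C4-2B MDVR VER library (-0.10), and PFKL, the liver type, was lower in all 4 contrasts, between -0.78 and -0.32.

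Aldolase cleaves fructose 1,6-bisphosphate into triose phosphates. ALDOA (chr16:30064164-30070457) was at 931, 740 and 705 FPKM in C4-2B MDVR cells and 760, 583 and 565 FPKM in CWR22Rv1 cells. Its fold changes, from -0.43 to -0.33, were the narrowest in range among the enzymes lower in all 4 contrasts, apart from PGAM1. ALDOC (chr17:28573115-28577264), the brain isozyme, was at 61.4, 39.7 and 66.7 FPKM in C4-2B MDVR cells and 24.1, 9.04 and 19.0 FPKM in CWR22Rv1 cells. It was lower with APO in both lines, at -0.63 and -1.41, whereas with VER it was at 0.12 and -0.34.

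The enzymes that handle triose phosphates, where the ATP-yielding phase begins, were below their control in every inhibited library. TPI1 (chr12:6867119-6870948), which interconverts the triose phosphates, was at 743, 499 and 451 FPKM in C4-2B MDVR cells and 991, 699 and 643 FPKM in CWR22Rv1 cells. GAPDH (chr12:6533927-6538374), which oxidises glyceraldehyde 3-phosphate, was the most abundant member at 2374, 1693 and 1432 FPKM and 2523, 1690 and 1460 FPKM. Its fold changes were -0.49, -0.73, -0.58 and -0.79, and its rank among all genes was 25, 59 and 53 in C4-2B MDVR and 20, 46 and 43 in CWR22Rv1. PGK1 (chrX:77910739-78129296), which makes the first ATP of the pathway and whose promoter is printed above, was at 258, 189 and 157 FPKM in C4-2B MDVR cells and 178, 157 and 139 FPKM in CWR22Rv1 cells. Its value with APO in CWR22Rv1 cells (-0.19) was within the threshold, and the other 3 were -0.45, -0.71 and -0.36.

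The enzymes from phosphoglycerate mutase to pyruvate kinase, which end in the second ATP-yielding reaction, were also lower in all 4 contrasts. PGAM1 (chr10:97426160-97433441), the mutase, was at 292, 170 and 172 FPKM in C4-2B MDVR cells and 186, 111 and 114 FPKM in CWR22Rv1 cells. Its fold changes lay within -0.78 and -0.71 in all 4 contrasts. ENO1 (chr1:8861000-8879250), the enolase, was at 990, 619 and 502 FPKM and at 534, 369 and 323 FPKM, a change of -0.98 in the C4-2B MDVR VER library and of -0.73 to -0.54 elsewhere. PKM (chr15:72199029-72231822), the pyruvate kinase, was at 481, 249 and 238 FPKM in C4-2B MDVR cells and 336, 174 and 217 FPKM in CWR22Rv1 cells. Its level was 51.7% of DMSO with APO in each line, 49.5% with VER in C4-2B MDVR and 64.8% with VER in CWR22Rv1 cells.

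Lactate dehydrogenase is a tetramer of LDHA subunits, which favour lactate formation, and LDHB subunits, which favour its oxidation. LDHA (chr11:18394388-18408425) was at 489, 232 and 168 FPKM in C4-2B MDVR cells and at 405, 236 and 208 FPKM in CWR22Rv1 cells. Its fold changes of -1.08, -1.54, -0.78 and -0.96 included the lowest of any enzyme with VER in C4-2B MDVR cells. LDHB (chr12:21635342-21757857) was at 528, 359 and 279 FPKM and at 619, 455 and 405 FPKM, with fold changes of -0.56, -0.92, -0.44 and -0.61. LDHA was therefore further below its control than LDHB in all 4 contrasts. The LDHA share of the summed LDHA and LDHB level was 48.1%, 39.2% and 37.5% in C4-2B MDVR and 39.6%, 34.2% and 34.0% in CWR22Rv1. Such shares are formed within a library and do not depend on how libraries are scaled.

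Other isozyme shares differed between lines and inhibitors. The PFKP share of phosphofructokinase was 39.2%, 26.5% and 24.0% in C4-2B MDVR cells and 6.41%, 5.66% and 4.33% in CWR22Rv1 cells. The HK2 share of hexokinase was 28.0%, 35.7% and 26.1% in C4-2B MDVR, highest with APO, and 34.0%, 23.2% and 29.3% in CWR22Rv1, lowest with APO. ALDOC made up 6.18%, 5.09% and 8.65% of aldolase in C4-2B MDVR cells, and 3.08%, 1.53% and 3.25% in CWR22Rv1 cells.

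**Figure D4:**
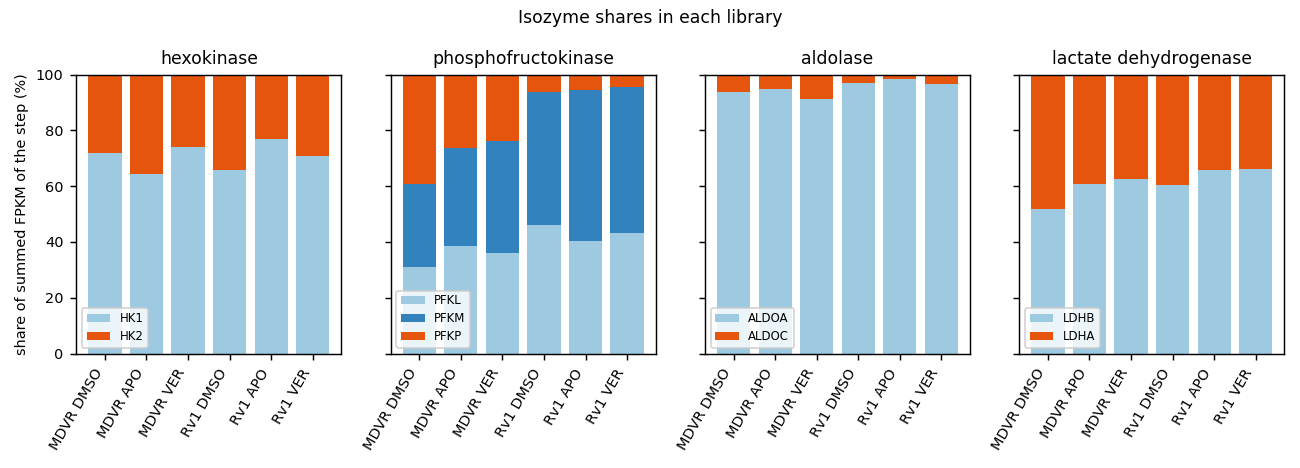
Share of the summed FPKM of a step (vertical axis, %) held by each isozyme in the 6 libraries, for hexokinase, phosphofructokinase, aldolase and lactate dehydrogenase. The LDHA segment is largest in the C4-2B MDVR DMSO library at 48.1%, and PFKP is a large segment only in C4-2B MDVR cells.

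Summing the isozymes gave 11 steps, of which 10, 10, 9 and 11 were lower. Hexokinase was the step nearest to its control with APO, at 113% and 94.2% of DMSO in the 2 lines. Lactate dehydrogenase was at 58.1%, 43.9%, 67.5% and 59.8% of DMSO, the second value being the lowest of any step. The 16 enzymes together summed to 7709, 5195 and 4549 FPKM in C4-2B MDVR and to 7003, 4801 and 4369 FPKM in CWR22Rv1. As a share of all FPKM outside the mitochondrial chromosome this was 1.35%, 0.815% and 0.807% in C4-2B MDVR cells. The shares in CWR22Rv1 cells were 1.34%, 0.828% and 0.802%, so the 4 inhibited libraries lay between 0.802% and 0.828% and both controls near 1.35%. With mitochondrial genes counted, the shares were 1.14%, 0.695% and 0.674% in C4-2B MDVR and 0.998%, 0.742% and 0.596% in CWR22Rv1. On that scale the inhibited libraries lay further apart, as did the controls.

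**Figure D5:**
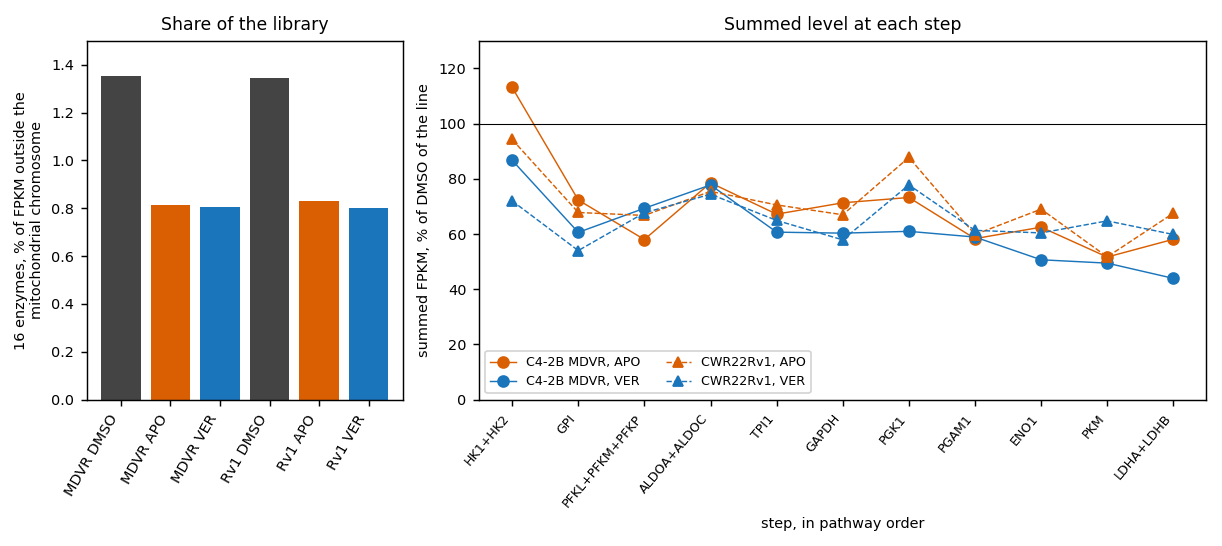
Left, the 16 enzymes as a share of FPKM outside the mitochondrial chromosome (%) in each library. Right, summed FPKM of each of the 11 steps as a percentage of the DMSO library of the same line, in pathway order, for APO (orange) and VER (blue) in C4-2B MDVR (circles) and CWR22Rv1 cells (triangles). The first step lies highest with APO in C4-2B MDVR cells at 113%, and the last step is lowest with VER in that line at 43.9%.

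The regulators of flux did not move together. PFKFB3 (chr10:6144934-6254644) makes fructose 2,6-bisphosphate, the activator of phosphofructokinase. It was at 17.1, 5.10 and 7.01 FPKM in C4-2B MDVR and at 20.0, 4.43 and 7.40 FPKM in CWR22Rv1. The 4 inhibited libraries held 22.2% to 41.0% of their control, with fold changes of -1.72, -1.27, -2.15 and -1.42, so that PFKFB3 was the one member past 2-fold in all 4 contrasts. PFKFB4 (chr3:48517684-48562015), a bifunctional relative, was at 7.73, 5.56 and 6.26 FPKM and at 10.4, 2.43 and 6.63 FPKM. The decrease with APO in CWR22Rv1 cells (-2.05) was far larger than the other 3, which lay between -0.64 and -0.30. PDK1, which inactivates pyruvate dehydrogenase and so keeps pyruvate from the mitochondria, ranged from 5.62 to 17.2 FPKM. It was higher with APO in both lines, at 0.40 and 0.32, and within the threshold with VER, but with either rescaling to the same sum it was within the threshold with APO in C4-2B MDVR cells, at 0.25 and 0.24, and at 0.17 in CWR22Rv1 cells by the sum of nuclear genes.

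The HIF subunits showed no common direction. HIF1A, the main alpha subunit, held at least 97.2% of the summed level of HIF1A and EPAS1 in every library and ranged from 25.5 to 49.1 FPKM. It was lower in C4-2B MDVR cells, at -0.36 and -0.67, and within the threshold in CWR22Rv1 cells, at 0.09 and -0.26, where either rescaling to the same sum took the value with VER past it, to -0.32. EPAS1 (HIF-2 alpha) was close to 1 FPKM or below in every library, from 0.51 to 1.08 FPKM. ARNT, the beta subunit, ranged from 13.8 to 22.7 FPKM and was higher with APO in both lines (0.37 and 0.38), but not past the threshold in either when libraries were rescaled by nuclear genes (0.21 and 0.23). With VER in CWR22Rv1 cells it was lower, at -0.27, but within the threshold when libraries were rescaled to a median ratio of 1 (-0.22). VHL, which recruits the ubiquitin ligase, ranged from 42.3 to 57.7 FPKM and was higher with APO in CWR22Rv1 cells (0.45).

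The prolyl hydroxylases differed from each other. EGLN1 (PHD2), the main oxygen sensor, stayed between 13.7 and 20.4 FPKM and passed the threshold with APO in CWR22Rv1 cells alone (0.31), which rescaling by nuclear genes reduced to 0.16. EGLN3 (PHD3, chr14:33924231-34462774), itself a HIF target, was at 6.82, 3.69 and 4.11 FPKM in C4-2B MDVR cells and at 1.91, 0.67 and 0.99 FPKM in CWR22Rv1 cells. It was lower in all 4 inhibited libraries, with fold changes of -0.87, -0.72, -1.39 and -0.88. Its share of the summed EGLN1 and EGLN3 level was 33.2%, 19.3% and 20.9% in C4-2B MDVR and 10.4%, 3.17% and 5.79% in CWR22Rv1.

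HIF targets outside glycolysis split by line and gene. HILPDA (chr7:128455849-128458418), a lipid droplet protein that inhibits lipolysis, was at 41.5, 17.2 and 30.6 FPKM in C4-2B MDVR cells and at 49.3, 23.6 and 42.0 FPKM in CWR22Rv1 cells. Both APO libraries were lower than their VER counterparts, with -1.26 and -1.06 for APO against -0.44 and -0.23 for VER. ANKRD37 (chr4:185396021-185400628) was at 7.59, 5.35 and 3.45 FPKM in C4-2B MDVR cells and at 2.86, 2.15 and 4.84 FPKM in CWR22Rv1 cells. Its change with VER was thus downward in C4-2B MDVR cells (-1.12) and upward in CWR22Rv1 cells (0.74). CA9 (chr9:35673856-35681159), the membrane carbonic anhydrase often used as a hypoxia marker, was at 1.23, 0.11 and 0.06 FPKM in C4-2B MDVR cells, so that it was nearly undetected with either inhibitor, at 8.65% and 4.60% of DMSO. In CWR22Rv1 cells it was at 0.13 FPKM with DMSO and 0.38 with APO and listed at 0 with VER, and fold changes at such levels depend on the pseudocount.

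The remaining targets changed less. P4HA1, a collagen prolyl hydroxylase, ranged from 36.7 to 63.6 FPKM, and its fold changes were -0.02, 0.07, 0.38 and 0.42, past the threshold in CWR22Rv1 alone, and there with APO at 0.23 and within it by nuclear genes. KDM3A, a histone demethylase, ranged from 6.79 to 14.2 FPKM and was lower only with VER in C4-2B MDVR cells, at -0.34. In the C4-2B MDVR VER library the targets outside glycolysis ran from 4.60% of their control for CA9 to 105% for P4HA1. CA9 was at only 0.06 FPKM there, and without it the lowest was ANKRD37 at 45.5%.

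With DMSO alone the lines already differed in these genes. Of the 33 members 16 were higher and 7 lower in C4-2B MDVR than in CWR22Rv1 cells, against 39.2% higher and 43.2% lower of 20903 genes compared, and the split was 12 and 12 when libraries were rescaled by nuclear genes. Past 2-fold, 6 members were higher and 1 lower, against 19.4% and 27.2% of genes. PFKP was the furthest apart, at 84.2 against 10.6 FPKM (2.97), followed by CA9 (2.50), EGLN3 (1.79), ANKRD37 (1.38), ALDOC (1.34) and PDK1 (1.16). SLC16A3 was the one member lower in C4-2B MDVR cells by more than 2-fold, at 35.9 against 78.2 FPKM (-1.12). Because only C4-2B MDVR cells were kept with enzalutamide, line and drug cannot be told apart.

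The inhibitors were also compared directly, at the same dose and time. In C4-2B MDVR cells 4 members were higher and 14 lower with VER than with APO, where 28.5% and 32.5% of 20122 genes were, and past 2-fold 0 were higher and 0 lower, against 8.68% and 10.5%. In CWR22Rv1 cells 11 were higher and 9 lower, against 37.3% and 34.5% of genes. The splits were 7 and 7 in C4-2B MDVR cells and 8 and 16 in CWR22Rv1 cells when all libraries were given an equal sum, so no overall direction can be read from these counts. Past 2-fold in CWR22Rv1 cells, the 4 higher with VER were SLC16A3 (1.80), PFKFB4 (1.41), ANKRD37 (1.13) and ALDOC (1.06), against 15.6% of genes, and the 1 lower was CA9, listed at 0 with VER, against 10.5%. In both lines 3 members were higher with VER than with APO, against 14.6% of the 18059 genes compared in both. They were HILPDA (0.82 and 0.83), ALDOC (0.75 and 1.06) and PFKFB3 (0.45 and 0.73). Lower in both were 4, against 15.1%: HIF1A (-0.31 and -0.35), PDK1 (-0.30 and -0.36), ARNT (-0.28 and -0.65) and CA9, at -0.40 in the first line and listed at 0 with VER in the second. Either rescaling to the same sum brought HIF1A, PDK1 and ARNT within the threshold in C4-2B MDVR cells.

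Genes next to these in metabolism did not share a direction. Of 42 further genes of glucose transport, glycolysis and pyruvate use, 32 were compared in the first line and 35 in the second. Higher were 11, 14, 12 and 13 of them, and 12, 12, 15 and 11 were lower. The medians lay between -0.02 and 0.10, near those of all genes. Of all genes compared, 37.7%, 35.6%, 35.6% and 32.1% were higher and 35.4%, 34.9%, 39.2% and 32.3% lower. These shares apply to the counts of the lists below as well. The mitochondrial phosphoenolpyruvate carboxykinase PCK2 was at 39.5, 337 and 252 FPKM in C4-2B MDVR and 47.9, 220 and 138 FPKM in CWR22Rv1, higher in all 4 inhibited libraries. HKDC1, a hexokinase relative, was listed at 0 in the C4-2B MDVR control and at 0.944 and 0.147 FPKM in its inhibited libraries, and was at 0.026, 5.14 and 0.084 FPKM in CWR22Rv1. At the low end, the pyruvate dehydrogenase kinase PDK3 was at 32.0, 15.1 and 9.87 FPKM and at 5.17, 3.11 and 1.72 FPKM. Pyruvate carboxylase (PC) was at 44.1, 9.78 and 12.6 FPKM in C4-2B MDVR, far below its control, and at 12.2, 17.7 and 9.78 FPKM in CWR22Rv1.

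The pentose phosphate and glycogen pathways branch from glucose 6-phosphate. Of 8 pentose phosphate genes, 5, 3, 2 and 1 were higher and 2, 3, 3 and 3 lower. Transketolase (TKT) had fold changes of -0.63, -0.31, -0.55 and 0.17 and the isomerase RPIA -0.43, -0.51, 0.12 and -0.20. The lactonase PGLS was at 0.68, 0.44, 0.52 and 0.02 and the epimerase RPE at 0.40, -0.31, 0.41 and -0.36. Of 10 glycogen genes compared, 5, 2, 5 and 2 were higher and 3, 4, 3 and 3 lower. Glycogen synthase GYS1 was lower in all 4 contrasts, at -0.82 to -0.31. The phosphorylase PYGB was higher in all 4, from 0.41 to 2.25, and the phosphoglucomutase PGM1 was at 1.31, 1.17, 0.37 and 0.17.

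Further genes of the HIF pathway and further HIF targets held changes in both directions in most contrasts. With VER in CWR22Rv1 cells more of the further targets were higher than lower, at 14 against 4. With VER in C4-2B MDVR cells 12 were higher and 10 lower of the 28 compared, and their median was -0.05. Of 14 pathway genes, 5, 5, 5 and 0 were higher and 5, 6, 4 and 3 lower. The chaperones HSP90AA1 and HSP90AB1, clients of which include HIF1A, were lower in 3 contrasts, at -0.68, -0.82 and -0.52 and at -0.66, -0.68 and -0.48, and within the threshold with VER in CWR22Rv1 cells. The ubiquitin ligases SIAH1 and SIAH2, which act on prolyl hydroxylases, were higher in the same 3, SIAH1 at 1.74, 1.06 and 1.31 and SIAH2 at 0.51, 0.36 and 1.2. Of 30 further targets, 28 of them compared in C4-2B MDVR cells, 13, 12, 12 and 14 were higher and 13, 10, 12 and 4 lower. Of the 28 compared in both lines, 9 were higher in both with APO and 9 lower, against 21.3% and 21.6% of all genes. With VER 10 were higher in both lines and 2 lower, against 17.9% and 18.2%. DDIT4, an inhibitor of mTORC1 that stress pathways other than HIF also induce, was at 79.5, 817 and 754 FPKM in C4-2B MDVR and 49.4, 177 and 92.0 FPKM in CWR22Rv1, again higher in all 4 inhibited libraries. TMEM45A differed from DMSO by 2.19, 2.75, -0.24 and 1.5 on the log2 scale. FUT11, a fucosyltransferase, was lower in all 4 contrasts, from -1.23 to -0.52. PLOD2, a collagen lysyl hydroxylase, was at 1.04, 0.25 and 0.29 FPKM in C4-2B MDVR cells and at 36.1, 22.2 and 38.6 FPKM in CWR22Rv1 cells.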

How the data were processed

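Per the labels, reads were aligned with HISAT to GRCh38 and quantified with Cufflinks and Cuffnorm; versions and annotation release are not given in the sources used here. The authors deposited 1 FPKM value per gene and library. The labels name a KAPA kit and the study's methods a TruSeq kit. Symbols and coordinates come from GENCODE 29 (57047 of 60658 identifiers matched). The study's methods give an approximate number of reads per sample but no total for each library. Low FPKM values put relative depth at about 1 to 1.63, an estimate from 19 to 67 genes per compared library. No counting error is therefore stated. Fold changes are differences of log2(FPKM + 0.1), which understates changes of low genes, for genes above 0.1 FPKM in any of a line's 3 libraries; the step was checked on simulated data.

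Members and lists were chosen with earlier results of these data known. All members are named. Those reaching 1 FPKM and changed past 2-fold, and the main isozyme of each step, are given in every library; from each other list the 2 highest and 2 lowest genes by median fold change among those reaching 1 FPKM, of which 1 is not reported here. Alternatives were other pseudocounts, filters, scalings and thresholds, and pseudogenes added. Python 3.11.15, pandas 2.3.3, numpy 2.4.6 and matplotlib 3.10.9 were used.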

Additional observations from a re-analysis of the deposited data

Results flagged for a closer look

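In 5 cases the single library of one line lay above its DMSO control past the threshold and that of the other line below it. None of these differences was tested, since each line has 1 library per condition. The differences are given as the log2 fold change in C4-2B MDVR minus that in CWR22Rv1 cells.

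With APO, HK2 went from 21.8 to 31.3 FPKM in C4-2B MDVR and from 23.0 to 14.8 FPKM in CWR22Rv1, a difference of 1.16 (0.52 and -0.64). EPAS1 went from 0.59 to 1.08 FPKM and from 0.86 to 0.53 FPKM, a difference of 1.39 (0.78 and -0.61). CA9 went from 1.23 to 0.11 FPKM and from 0.13 to 0.38 FPKM, a difference of -3.71 (-2.69 and 1.02). With VER, SLC2A3 went from 1.5 to 0.88 FPKM and from 1.03 to 1.70 FPKM, a difference of -1.37 (-0.71 and 0.66), but with its pseudogenes added the CWR22Rv1 value was -0.61, so that both were lower. ANKRD37 went from 7.59 to 3.45 FPKM and from 2.86 to 4.84 FPKM, a difference of -1.86 (-1.12 and 0.74). Of these genes HK2 and ANKRD37 exceeded 2 FPKM in all 6 libraries, and EPAS1, CA9 and SLC2A3 stayed below 2 FPKM throughout.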

How the results depend on the processing

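No paired analysis was possible because each condition has 1 library. Of the fold changes of members recomputed under the alternatives, 1988 kept their direction and side of the threshold, 44 lost the threshold, 32 gained it and 2 reversed. Both reversals were SLC2A3 with its pseudogenes added, at -0.61 with VER in CWR22Rv1 cells and -0.78 between the lines. A filter cannot alter a fold change, so the 231, 225 and 224 values recomputed under other filters were bound to stay the same. By the sum of nuclear genes 196 stayed the same, 20 lost the threshold and 15 gained it. The median of the 16 enzymes stayed lower past the threshold in all 4 inhibitor contrasts under every alternative, between -0.72 and -0.45. Rescaling to the same sum moved the median of genes over 1 FPKM to -0.13 and 0.11 with APO in C4-2B MDVR and CWR22Rv1 cells, to 0.12 and -0.21 between VER and APO and to 0.11 between the lines. By nuclear genes it was -0.15 and -0.16 with APO and 0.14 between VER and APO in C4-2B MDVR cells. The HIF targets with APO in CWR22Rv1 cells then reached 0.37 by the same sum, but were at -0.07 where the filter left CA9 out. By nuclear genes the enzymes differed between the lines by 0.18 and the HIF targets by -0.38. At a threshold of 1.5-fold, 12 and 14 members were changed with APO in C4-2B MDVR and CWR22Rv1 cells, against 48.3% and 51.2% of all genes, 10 between the lines, against 64.2%, and 5 and 9 between VER and APO, against 33.1% and 46.2%. At 2-fold these were 6, 7, 7, 0 and 5, against 28.7%, 30.6%, 46.6%, 19.1% and 26.2%, and 7 and 3 with VER, against 27.8% and 19.8%. Without replicates, no change can be set against the spread between cultures.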

Other observations

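Several transcripts often used as references in quantitative PCR were not level in these libraries. They were chosen after their values were seen. GAPDH with APO and VER was at 71.3% and 60.3% of DMSO in C4-2B MDVR cells and 67.0% and 57.9% in CWR22Rv1 cells. ACTB, which encodes beta-actin, was at 80.4%, 69.8%, 65.0% and 56.1% in the same order. PPIA was at 82.9%, 55.9%, 56.2% and 57.7%, and HPRT1 at 59.1%, 54.1%, 72.5% and 71.8%. The ribosomal protein gene RPLP0 was higher in all 4 contrasts, at 143%, 125%, 172% and 133%. TBP was at 101%, 64.5%, 130% and 104%, and B2M at 131%, 86.8%, 90.6% and 154%.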
